A study of Drosophila melanogaster with 2 samples.

Results

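Deep intragenic peaks of H3K27ac were taken here as peaks that lie well inside genes. H3K27ac is the acetylation of lysine 27 on histone H3, a mark carried by active promoters and active enhancers. A peak of replicate 1 on the arms 2L, 2R, 3L, 3R or 4 was a member when it overlapped a peak of replicate 2 by at least 1 bp and its summit met both of the following conditions. The summit lay inside a protein-coding gene, and it lay over 2 kb from the annotated start or end of every gene of any kind. This held for 3311 of the 10808 shared autosomal peaks (30.6%) and of the 14461 peaks of replicate 1 in all. The members overlapped 3270 different replicate 2 peaks, so that some neighbours share a partner and its values. Before the rule on position, 10808 of 13091 autosomal replicate 1 peaks overlapped a replicate 2 peak (82.6%). In the other direction, 11140 of 24912 autosomal replicate 2 peaks overlapped a replicate 1 peak (44.7%). For peaks in the deep places these shares were 80.5% and 42.7%, and for peaks within 500 bp of a gene end 85.9% and 51.4%.

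The tissue was the wing of male pupae of the transgenic Drosophila melanogaster line D2, taken at 67% of pupal development, a stage at which the study describes the activity of the wing spot as repressed. Both libraries are biological replicates of 35 to 45 pooled wings and form 1 group, so no treatment or genotype is compared and the values run between places in the genome. The labels name no control library, and the insert of the line is not described in the sources used here. In the CUT&RUN assay, an antibody against the mark holds a nuclease that releases the marked chromatin for sequencing.

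In Drosophila, as in other animals, long genes that regulate development often carry enhancers inside their introns, and such elements can act on a promoter many kilobases away. Acetylated nucleosomes flank enhancers in the cells in which they are used. The gene table used here gives the outermost ends of each gene and neither strand, transcripts nor exons. A deep summit may therefore lie in an intron, in an exon or at an internal start site, and the label of candidate intronic enhancer was not tested.

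Replicate 2 held more peaks than replicate 1, with 24912 against 13091 on the autosomal arms. The background recovered from the peak values was 13.8 reads or fragments per position in replicate 1 and 27.1 in replicate 2, and the lowest fold listed was 1.49 and 1.31. This difference touches each count below, and counts from each list alone are given beside the shared ones.

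Members were less dense along the sequence than peaks at gene ends and denser than peaks between genes. The places open to them added up to 41.6 Mb, which gave 7.96 shared peaks per 100 kb. Shared peaks with a summit within 500 bp of a gene end reached 19.0 per 100 kb over 20.2 Mb. Those between genes reached 5.15 per 100 kb over the sequence outside genes and over 500 bp from gene ends. The remaining sequence, inside genes and over 500 bp from gene ends but not deep, was denser than the deep places. It held 11.4 shared peaks per 100 kb over 19.4 Mb, with 14.3 and 30.2 by the lists of replicates 1 and 2. The order was kept in each list alone. Replicate 1 listed 9.89, 22.2 and 6.19 peaks per 100 kb in the deep, gene-end and intergenic places, and replicate 2 listed 19.2, 38.0 and 12.3. Peaks are not replicates, so these densities describe the libraries and were not tested.

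The members spread over all large arms. There were 734 on 2L, 784 on 2R, 796 on 3L, 986 on 3R and 11 on 4. Per 100 kb of deep sequence this gave 8.89 on 2L, 8.63 on 2R, 7.94 on 3L and 7.29 on 3R. The order of the arms depends on a few long genes without members. On 3R, Myo81F and Pzl added 1940 and 701 kb to a deep sequence of 13.5 Mb. The small chromosome 4 stood lowest, at 1.63 per 100 kb, from 7 genes.

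The heights of the members followed the replicates moderately. The authors' fold enrichment, the pileup at the summit over the local background of the caller, ran from 1.49 to 8.93 in replicate 1 and from 1.56 to 7.16 in replicate 2. The medians were 2.43 and 2.27. Across the 3311 members, which share their libraries and are not independent, the Spearman correlation of the fold between replicates was 0.56. The summits of the replicates lay a median of 55 bp apart, and 90.8% lay within 250 bp of each other.

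**Figure D1:**
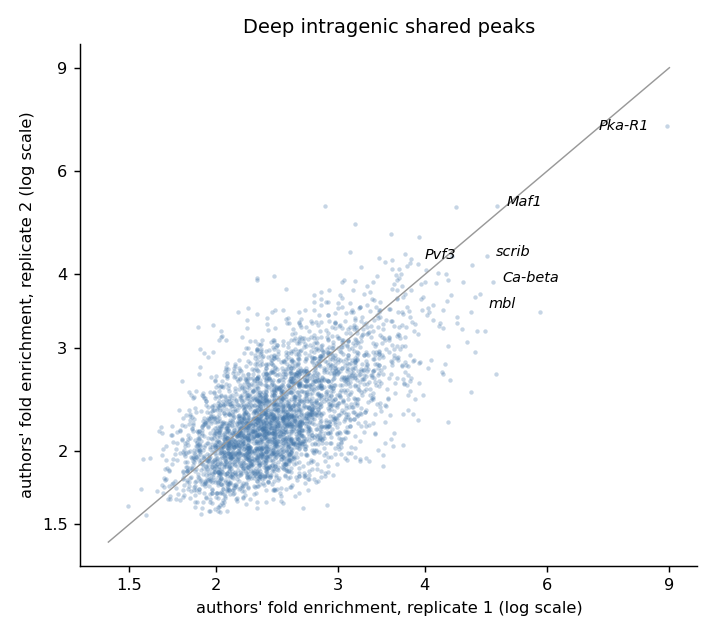
Each point is 1 of the 3311 deep intragenic shared peaks, placed by the authors' fold enrichment in replicate 1 (x axis, log scale) and replicate 2 (y axis, log scale), with the line of equal values. The peak in Pka-R1 stands apart from the rest at 8.93 and 7.16, and the other labelled peaks lie between 3.71 and 5.23 in both lists.

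Members had a lower median fold than gene-end peaks in both replicates, while the median pileup was higher in replicate 1 alone. In replicate 1 the median fold was 2.43 for members and 2.62 for gene-end peaks, and in replicate 2 it was 2.27 and 2.33. Shared peaks between genes had medians of 2.48 in replicate 1 and 2.34 in replicate 2, also above the members. The median pileup, the number of reads or fragments over the summit, was 57 for members and 53 for gene-end peaks in replicate 1. In replicate 2 it was 86 and 87. The median local background of the caller was 22.2 for members and 18.8 for gene-end peaks in replicate 1, and 36.5 and 36.8 in replicate 2. The fold thus set deep peaks below gene-end peaks in both lists, while the pileup set them above in replicate 1 and 1 unit below in replicate 2. Median widths were 303 bp for members and 331 bp for gene-end peaks in replicate 1, and 330 and 378 bp in replicate 2.

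The highest member lay in Pka-R1, whose product is the type I regulatory chain of the cAMP-dependent protein kinase, at chr3L:20823058-20823858 of dm6. Its pileup was 173 in replicate 1 (95% exact Poisson interval 148 to 201) and 229 in replicate 2 (200 to 261), and both summits fell on the identical base. Such intervals cover counting error alone, and reads without molecular identifiers are not independent molecules. It was high in both libraries and stood apart from the next members.

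The next members were ranked by the lower of their percentiles in the lists. In Maf1, a repressor of RNA polymerase III, the fold was 5.09 in replicate 1 and 5.23 in replicate 2. The summits of the replicates lay 547 bp apart there, and the replicate 2 peak was 2129 bp wide. It also overlapped a second member in Maf1, with a fold of 2.87 in replicate 1. In scrib, a scaffold of apical and basal cell polarity, a peak 25189 bp from the nearest gene end (chr3R:26567073-26568823) had 4.91 and 4.30. In Ca-beta, a subunit of voltage-gated calcium channels, the peak at chr2L:11196491-11197160 had 5.02 and 3.89. In all 3 genes the fold lay at percentile 99.4 or above of each list.

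Further members among the 12 highest lay in genes of varied roles. The peak in Pvf3, a ligand related to PDGF and VEGF, had 4.68 and 4.16 (chr2L:7133838-7134366). The peak in mbl, a splicing regulator, had 4.80 and 3.71, and the peak in Dys, the dystrophin gene, had 4.53 and 3.88. The peak in ab, which encodes the transcription factor Abrupt and is needed for a wing vein, had 4.32 and 3.91 (chr2L:11221108-11221588). The remaining genes among the 12 highest peaks were LpR2, CG31038, ich and CG9674. Of all members, 193 lay above the 90th percentile of fold in both lists (5.83%). The share of intergenic peaks above it was 7.24%.

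The members nearest the 2 kb limit, and the shared peaks nearest to it on the other side, were as follows. Just inside lay peaks in Notum (summit 2001 bp from a gene end, fold 2.50 in replicate 1 and 2.35 in replicate 2), Chd64 (2002 bp, 2.22 and 1.80) and trbl (2009 bp, 2.28 and 2.34). Just outside lay peaks in jing (1999 bp, 2.40 and 2.41), sty (1999 bp, 2.95 and 3.08) and the overlapping CG45085 and CG8026 (1996 bp, 3.34 and 2.34). The values on the inner and outer side overlapped in both replicates, and the highest lay outside.

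The 3311 peaks fell into 1152 genes. Of 11725 autosomal protein-coding genes, 3122 had any sequence over 2 kb from every gene end (26.6%), and 36.9% of these held at least 1 member. Among genes with over 5 kb of such sequence the share was 58.5%. Single members were found in 487 genes, 5 or more in 223 genes and 10 or more in 53. The 223 genes held 1737 of the members (52.5%). Of the 3311 members, 148 lay in more than 1 coding gene and were counted for each of these genes. Replicate 1 alone placed deep peaks in 1235 genes (39.6%) and replicate 2 alone in 1964 (62.9%).

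Longer genes held more members. The median deep sequence, meaning gene sequence over 2 kb from every gene end, was 12.2 kb in genes with a member and 2.56 kb in genes with deep sequence and no member. Across the 3122 genes, the Spearman correlation of the number of members with deep length was 0.54, and the Pearson correlation was 0.25. By each list alone the Spearman correlation was 0.54 in replicate 1 and 0.69 in replicate 2. Genes share the libraries and are not replicates, so these are descriptions.

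**Figure D2:**
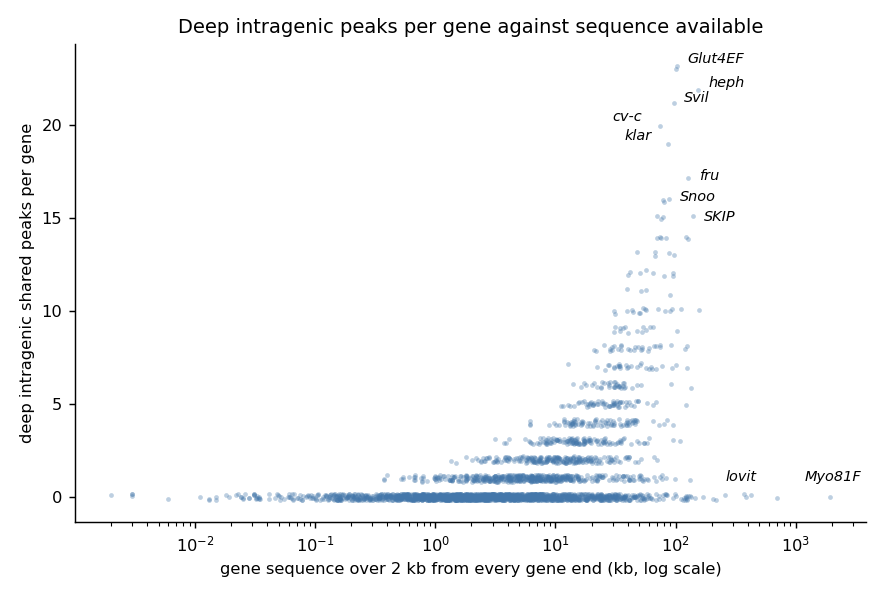
Each point is 1 of the 3122 autosomal protein-coding genes with deep sequence, placed by its deep sequence in kb (x axis, log scale) and its number of deep intragenic shared peaks (y axis, spread slightly for visibility). Counts rise with length up to 23 in Glut4EF, while the longest gene, Myo81F, holds none.

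Per unit of sequence, the number was nearly level over most lengths and dropped in the class of the longest genes. Genes with 2 to 5 kb of deep sequence held 10.6 members per 100 kb, those with 10 to 20 kb held 10.7 and those with 50 to 100 kb held 8.61. The 41 genes with over 100 kb held 2.35 per 100 kb, and 18 of them (43.9%) held any. The 23 without a member made up 6.40 Mb of the 8.61 Mb of deep sequence in this class. The 6 longest genes without a member alone made up 4.08 Mb. Such genes therefore weigh heavily in the low figure of the class, and an effect of length itself was not tested. In the list of replicate 2 alone the number fell over the whole range, from 31.8 per 100 kb in genes with 2 to 5 kb to 18.7 in genes with 50 to 100 kb.

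The distance from gene ends, taken over the same sequence, showed a like course. From 2 to 3 kb there were 9.26 members per 100 kb, from 5 to 10 kb 9.06, from 20 to 50 kb 5.68, and beyond 50 kb 0.442 from 14 peaks. The 3.17 Mb beyond 50 kb can only lie in genes over 100 kb long, many of which held no member. Distance and gene length therefore cannot be told apart in that class. The place of the genes on their arms, given below for the longest, was not separated from either. The farthest summit lay 64.8 kb from any gene end. Replicate 2 alone fell from 26.5 to 11.3 between the classes of 2 to 3 kb and 20 to 50 kb. The median fold of members stayed between 2.41 and 2.50 in replicate 1 and between 2.22 and 2.30 in replicate 2 over the classes up to 50 kb.

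**Figure D3:**
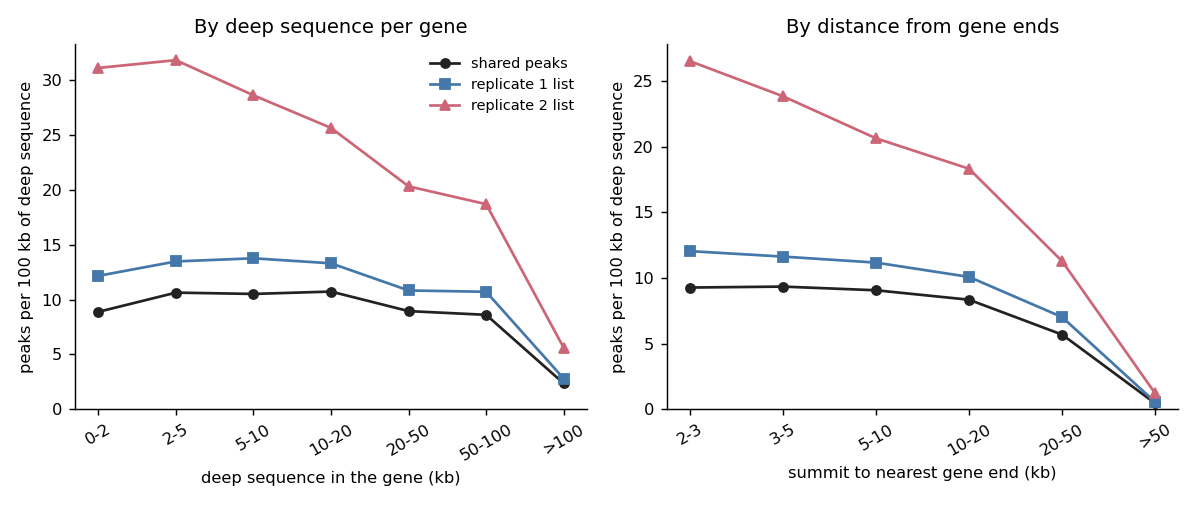
Peaks per 100 kb of deep sequence (y axis), by the deep sequence in a gene (left, kb) and by the distance of the summit from the nearest gene end (right, kb), for shared peaks and for each list alone. Shared peaks run between 8.61 and 10.7 per 100 kb from 2 kb up to 100 kb of deep sequence and fall to 2.35 above it, and the list of replicate 2 falls throughout after the second class.

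The spacing of members within a gene was uneven. The 2313 gaps between neighbouring summits of a gene had a median of 3.31 kb, and their lower and upper quartiles were 1.22 and 6.89 kb. In genes with 2 or more members there was 1 member per 6.24 kb of deep sequence. Gaps of up to 1 kb made up 19.5% and gaps of up to 2 kb 37.1%.

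The gene with the most members was Glut4EF on 3R (9874681 to 9995364), which encodes a DNA-binding factor, with 23 members. The list of replicate 1 held 27 deep peaks there and that of replicate 2 held 33. The members spanned 93.8 kb of the gene and had a median fold of 2.30 in replicate 1 and 2.18 in replicate 2. CG46467 starts at the same position and holds the same 23 peaks. These are many peaks of ordinary fold, with single values from 1.71 to 3.61 in replicate 1.

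Regulators of RNA and of the cytoskeleton followed. The gene heph (3R, 31846987 to 32015520), which encodes the polypyrimidine tract-binding protein, held 22 members over 126 kb, with 28 and 46 deep peaks in the lists of replicates 1 and 2. Svil, a relative of the actin-binding villins, held 21 (24 and 34), and cv-c, a RhoGAP needed for the crossveins of the wing, held 20 (22 and 32). The gene klar, whose KASH-domain protein ties nuclei to microtubules, held 19 (24 and 33). The fold of the peaks in cv-c was low, at a median of 2.01 and 1.88.

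Further genes with many members were fru, which encodes transcription factors best known from male courtship neurons, with 17, and CG42238 and Snoo with 16 each. Snoo encodes the fly relative of the Ski and Sno corepressors, and the fold of its peaks was higher, at a median of 2.70 and 2.68. Their pileups were not high, at 35 to 67 in replicate 1 and 54 to 117 in replicate 2. The medians of all members were 57 and 86. Frizzled-family receptor genes were also among them: fz2, a Wingless receptor, held 16 (19 and 28) and fz, the receptor of planar polarity, held 15 (19 and 28). SKIP, which encodes a protein that binds the potassium channel Shal, held 15 (15 and 28). The members of SKIP spanned 63.1 kb of a gene of 162 kb, and those of fru 63.6 kb of 131 kb, so that part of each gene had none.

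**Figure D4:**
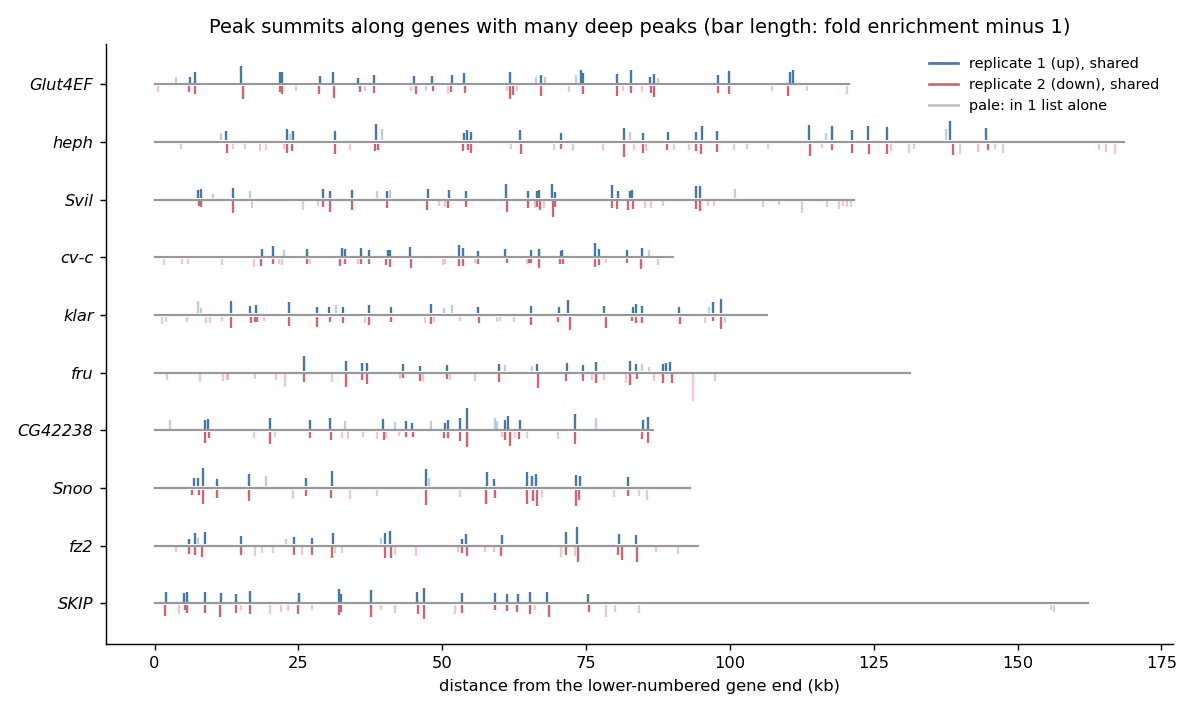
Summits of all peaks along 10 of the genes with the most members, by distance from the lower-numbered gene end (x axis, kb), with bars of length fold enrichment minus 1 for replicate 1 (up) and replicate 2 (down), and pale bars for peaks found in 1 list alone. In SKIP the members span 63.1 kb on the low-numbered side of the gene, while in heph they span 126 kb.

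The highest single densities lay in genes with little deep sequence, where the required minimum of 4 members by itself gives a high density. As a class, genes with 5 to 10 kb of deep sequence held 10.5 per 100 kb. Among genes with 4 or more members, Cht7, a chitinase gene on 3L (3090985 to 3106958), held 4 within 6.12 kb of deep sequence, or 65.4 per 100 kb. Its members had folds of only 1.76 to 1.82 in replicate 1 and 1.69 to 2.01 in replicate 2, but pileups of 79 to 87 and 88 to 112, above the member medians of 57 and 86. The first 2 of them overlap the same replicate 2 peak. Next were CG33110 and qua, a villin-like actin-bundling gene, with 4 members in 6.20 kb each, and Ccdc85 with 7 in 12.8 kb. The zinc-finger gene crol, which responds to ecdysone, and Osi17 of the Osiris family held 5 each in 11.1 and 11.5 kb.

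Some of the longest genes held none. Myo81F, a myosin gene on 3R with 1940 kb of deep sequence, had 0 members, 0 deep peaks in replicate 1 and 1 in replicate 2. Pzl, a Piezo-like gene, had 701 kb, lovit 424 kb, CG17684 385 kb and DIP-lambda 375 kb, and neither list held a peak anywhere inside them. By position, Myo81F ran from 567076 to 2532932 and Pzl from 2554162 to 3263582 of 3R, and lovit from 25236940 to 25670980 of 3L. On 2R, DIP-lambda ran from 326768 to 705848 and CG17684 from 1866080 to 2262115. The genes on 3R and 2R thus lie toward the low-numbered end of their arms. Whether length or this position goes with the lack of members was not tested. The Bruno-family gene bru3 had 259 kb, 0 members and 4 deep peaks in replicate 2. Of the 41 genes with over 100 kb, 23 held no member and 13 had no deep peak in either list. Whether reads can be placed in these sequences was not tested.

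Deep members were set against peaks at the gene's own ends, which the rule did not use. Of the genes with deep sequence, 47.9% had a shared peak within 500 bp of one of their ends. Among genes with 20 to 100 kb of deep sequence, 168 of 202 with such an end peak held a member (83.2%), against 196 of 344 without (57.0%). The density was 12.1 members per 100 kb with an end peak and 6.95 without, and it was 14.6 against 8.59 in the list of replicate 1 and 25.4 against 16.4 in that of replicate 2. Among genes with up to 20 kb the densities were 10.9 and 10.2. Of the 223 genes with 5 or more members, 113 had no shared peak at an end, Glut4EF, heph, fz and fz2 among them. This is near the share of all genes with deep sequence, of which 1628 of 3122 had none. In Glut4EF, replicate 2 alone listed a peak at 120.3 kb of its 120.7 kb.

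Gene lists of wing biology and of other cell types were described by their members per 100 kb of deep sequence, against 8.03 for all genes with deep sequence (9.96 by replicate 1 and 19.3 by replicate 2). Of all genes with deep sequence, 36.9% held a member, and of those with over 20 kb, 65.1%. The lists hold many long genes, so a high share of genes alone says little. They were also written with earlier results of these data known, so their densities are no independent support for any theme.

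Receptors and modulators of wing signalling had the highest density, 19.4 per 100 kb, with members in 14 of 21 genes (23.1 and 36.0 by the lists of replicates 1 and 2). The glypican genes dlp and dally, which bind Wingless and Dpp at the cell surface, held 10 and 8. The Wingless co-receptor gene arr and its feedback inhibitor gene nkd held 8 each. The insulin receptor gene InR held 7, and the Dpp receptor gene tkv 5. Egfr held 4, none above a fold of 2.56 in replicate 1 or 2.64 in replicate 2. The longest genes of the list without a member were tok, Pvr and htl, with 25.4, 14.9 and 3.77 kb.

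Ligand genes held fewer per length, 11.3 per 100 kb, in 12 of 13 genes. In dpp, the BMP ligand of the wing, 4 members were found. The highest in replicate 1, at chr2L:2450759-2451338, had folds of 3.55 and 3.11 and pileups of 64 and 114, and the lowest, at chr2L:2444056-2444354, had 2.34 and 2.46. In vn, a neuregulin-like ligand of Egfr, there were 6, the highest at chr3L:5819692-5819965 with 3.34 and 3.46. The Notch ligand gene Ser held 4 and Delta 2. The guidance ligand gene sli held 7, and wg held 1 in 5.11 kb. Pvf2 was the gene without one.

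Planar polarity and wing hair genes had 16.9 members per 100 kb, in 6 of 10 genes. Beside fz, the protocadherin gene ds held 13 and the core polarity gene pk 13. The highest member in pk had 4.18 and 4.02, and the highest of ds in replicate 1 had 3.17 and 2.42 (chr2L:696254-696854). The cadherin gene stan held 4. The wing hair gene mwh, with 6.19 kb of deep sequence, held none and had no deep peak in either list.

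Ecdysone, the steroid hormone of moulting and metamorphosis, acts through nuclear receptors that in turn induce others. Of 19 genes of its response, 17 held a member, at 16.0 per 100 kb (18.5 and 31.3 by the lists). The coactivator gene tai held 14, Eip75B 12, Eip74EF 11 and Eip93F and Eip78C 9 each. EcR, the receptor gene itself, held 8, the highest of which had a fold of 3.64 in replicate 1 and 3.91 in replicate 2. The highest members of Eip75B in replicate 1 had 4.65 and 3.45 at chr3L:18058010-18058706 and 4.52 and 3.23 at chr3L:18012981-18013683. Kr-h1 and Hr51 held none.

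Factors of epidermal differentiation had 16.1 members per 100 kb, in 14 of 18 genes. Much of this came from few genes, as Glut4EF held 23 and Snoo 16 of the list's 131 members. After these came luna and bun with 14 each, mam with 12, shn with 10 and grh, the regulator of epidermal barrier genes, with 9. The paralogous pigmentation repressors bab1 and bab2 held 3 and 1 in 60.7 and 32.8 kb. Ets65A and Sox21b held none.

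Wing transcription factor genes stood nearer to all genes, at 10.4 per 100 kb and 15 of 29 genes. The gene hth held 7 in 124 kb, nub and inv 6 each, and zfh2, on chromosome 4, 5 of that chromosome's 11. The selector genes ap and vg held 3 and 1. The longest without a member were zfh1, mirr and pnr.

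Genes of the apical matrix and chitin had 10.7 per 100 kb, in 6 of 13 genes. The giant matrix gene dpy held 8 in 124 kb, with 9 deep peaks in the list of replicate 1 and 41 in that of replicate 2. The chitin synthase gene kkv held none in 5.19 kb. Of the pigmentation and tanning genes, 5 of 16 had deep sequence and 3 held members. The laccase gene stw held 4, speck 2 and e 1, the last at chr3R:21233950-21234260 with 3.19 and 2.64.

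Neuronal genes stood at the other end. In whole wings, fewer cells of a type and less of the mark per cell cannot be told apart. Across 19 genes with 534 kb of deep sequence there was 1 member, in the potassium channel gene slo (chr3R:24667982-24668164, fold 2.50 and 1.96), which is 0.187 per 100 kb. Replicate 1 alone also gave 0.187, against 9.96 for all genes. Replicate 2 alone gave 5.06 against 19.3, with deep peaks in 13 of the 19 genes. The receptor gene nAChRalpha6, with 84.1 kb, and the transcription factor gene pros, with 58.9 kb, held no member. In brp, of the synaptic active zone, replicate 2 alone listed 8. Neuronal genes stood below all genes in both lists, by a smaller ratio in replicate 2.

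Adhesion and guidance genes were mixed. The list had 4.87 members per 100 kb, in 16 of 30 genes, with 11 in Ten-m, 10 in the septate junction gene Fas3, 9 in caps and 6 each in robo2 and fra. Lar, a receptor phosphatase gene, and Con, with 122 and 116 kb, held none, nor did Dscam2, Dscam3 and Dscam4. RNA-binding regulators had 6.37 per 100 kb in 13 of 18 genes, with 14 in sm and 10 each in pum and shep after heph, and none in bru3, Rbp6 and bru1.

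Among other cell types that a wing preparation may hold, tracheal genes had 13.4 per 100 kb (4 of 8 genes). Of their 25 members, pyd, a junction protein gene that epidermal cells also use, held 12, uif 8, trh 4 and dysf 1. Ptx1, Gasp, rib and btl held none. Muscle genes had 7.17 (6 of 13), with 8 in Zasp52, 6 in Msp300 and 5 in Mef2 and none in Mhc, the muscle myosin gene, whose deep sequence held 4 peaks of replicate 2 alone. Hemocyte genes had 5.97 (2 of 9), with 4 in ush and 3 in Ppn and none in Hml, Pxn or srp. Glial genes had 2.10 (1 of 5), from nrv2. By the list of replicate 1, muscle, hemocyte and glial genes had 8.55, 6.83 and 4.20, below the 9.96 for all genes. By that of replicate 2 they had 20.97, 19.63 and 23.07, above the 19.3 for all genes. Their place below all genes thus held for shared peaks and replicate 1 and not for replicate 2. Tracheal genes stood above all genes in each list alone, at 16.6 and 31.1. None of the 21 ribosomal and proteasome genes examined had deep sequence. How much of a peak comes from which cell type was not tested.

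**Figure D5:**
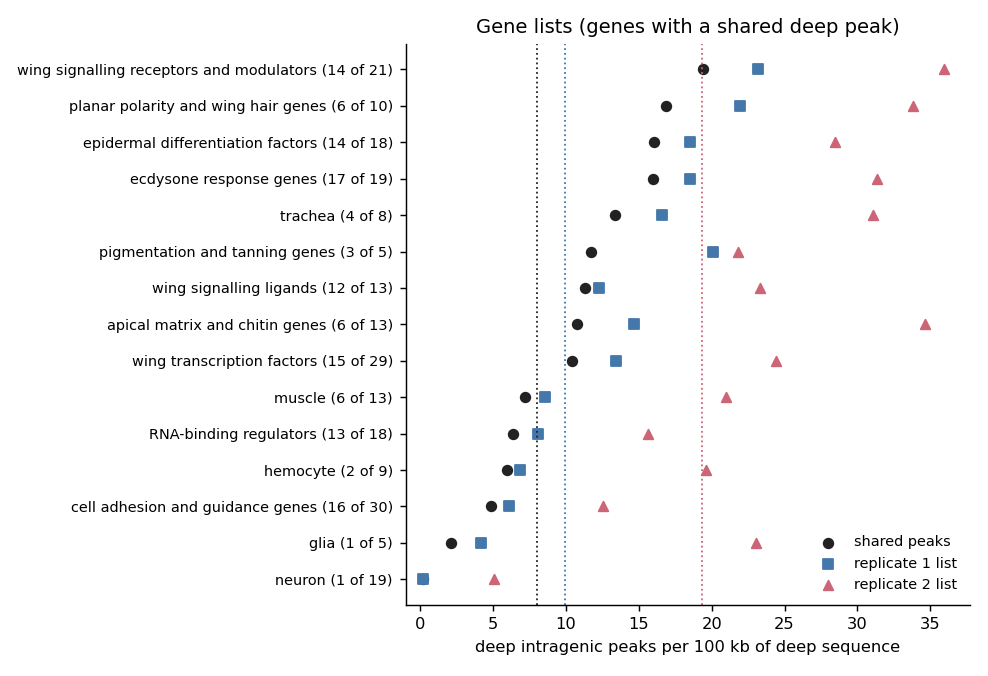
Deep intragenic peaks per 100 kb of deep sequence (x axis) in 15 gene lists, for shared peaks (circles), the list of replicate 1 (squares) and the list of replicate 2 (triangles), with dotted lines for all genes with deep sequence and, in brackets, the genes that hold a shared deep peak. Signalling receptors stand highest at 19.4 and neuronal genes lowest at 0.187 for shared peaks.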

How the data were processed

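H3K27ac CUT&RUN of male pupal wings gave 1 peak list for each of 2 biological replicates. Per the submitters' processing notes, Bowtie2, MACS2 and the build dm6 were used, but versions, settings and controls are not stated there. Positions, as deposited, were turned into 1-based coordinates. The fold is the authors' ratio of the summit pileup to the local background of the caller, and its -log10 values of p and q were deposited by the authors too. The score column, also deposited, repeats the latter in whole numbers. Values describe and rank peaks within a list.

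Pileup and background were solved from the deposited fold and -log10 p as a Poisson tail, which matched within 0.001 units for over 99.9% of peaks. Depth is known only as this background, since no read totals were given. The sharing, position, deep-length and pileup steps were tested on simulated data.

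Gene ends of all biotypes came from a RefSeq table of Release 6, the assembly also called dm6. It gives no strand or exons. Of the list symbols, 7 were matched through a synonym and 6 were not matched. Summits, overlaps and lengths were computed with Python 3.11.15, numpy 2.4.6, pandas 2.3.3 and scipy 1.17.1.

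No test was run, since both libraries form 1 group and peaks and genes are not replicates. The rule for named genes took the 12 with the most members, the 8 densest with 4 or more members, the genes of the 12 highest peaks, the 6 longest without a member, and the 3 peaks on each side of the 2 kb limit. From each list it took up to 4 genes with the most members and up to 3 of the longest without one. Other genes of a list named in the text, including nkd, InR, tkv, Egfr, EcR, mam, shn, grh, Delta, wg, ap, vg and brp, were chosen after their values were seen. Members and lists were chosen with earlier results of these data known. Alternatives were another distance limit, whole intervals, coding ends alone, stricter sharing, the 7230 top peaks of each list, a -log10 q of 5 or more, the other base list, each list alone, no chromosome 4, and, added after seeing the data, genes with up to 100 kb of deep sequence.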

Additional observations from a re-analysis of the deposited data

How the results depend on the processing

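No paired analysis was possible because both replicates form 1 group. The count of 3311 members became 1962 at over 5 kb, 2168 with a -log10 q of at least 5 and 1223 with the 7230 top peaks of each list. Their 1152 genes became 611 at over 5 kb and 707 with equal top peaks. The share of shared peaks, 30.6%, was 40.1% at over 1 kb, 18.2% at over 5 kb, 29.4% with whole intervals, 33.4% with coding ends alone, 32.1% with a reciprocal overlap of 50% and 29.6% with equal top peaks. By each list alone the members ranged from 4113 to 7966, the genes from 1235 to 1964, the share from 31.4% to 32.0%, the density from 9.89 to 19.2 per 100 kb and the Spearman correlation with deep length from 0.54 to 0.69, the higher of each in replicate 2. Under the other settings the density ran from 2.94 (equal top peaks, which leave fewer peaks) to 9.44 per 100 kb (genes with up to 100 kb, chosen after seeing the data) and the correlation from 0.46 to 0.55. The fold difference of members from gene-end peaks stayed below 0 under the settings run, with -0.00036 in replicate 2 for equal top peaks. The neuronal list held 1 gene with a member, 0 with a -log10 q of at least 5 or equal top peaks, 2 at over 1 kb or with coding ends alone, and 13 by replicate 2 alone. Of 180 list counts over the 12 planned settings, 22 moved by over 1.5 times, and of 312 counts in named genes 54 did. The settings differed widely. With equal top peaks 18 named genes moved and 8 did not, and by replicate 2 alone 12 moved and 14 did not. By replicate 2 alone 7 lists moved and 8 did not. Leaving out chromosome 4, taking whole intervals or using the other base list moved none. How far the depth of either library limits the shared set was not tested, and a region without a peak has no measured level here.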
